A study of Mus musculus with 16 samples.

Results

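The comparison described here set the 4 arrays numbered 1.2 against the 4 arrays numbered 1.1, in cultured mouse macrophages. The 8 arrays, of 16 in the series, were chosen by the number that ends their titles, and each number holds 1 array of every genotype and treatment label. In the labels the first digit is a mouse and the second a replicate. What a replicate is (a separate culture, a separate RNA extraction or a repeated hybridisation) is not stated in the labels. The cells were bone marrow derived macrophages of C57BL6 mice, 12 weeks old, grown in recombinant macrophage colony stimulating factor. Mouse 1 of the wild-type label carried the floxed Ndst1 alleles without Cre (Ndst1f/f LysMCre-), and mouse 1 of the Ndst1-deficient label carried them with Cre (Ndst1f/f LysMCre+). Cre driven from the lysozyme M locus acts in myeloid cells. From each mouse, cells were left untreated or given 50 µg/ml of aggregated LDL (agLDL) for 24 hours, both in lipoprotein-deficient serum. Each array numbered 1.2 was paired with the array numbered 1.1 of the same genotype and agLDL label, which gave 4 pairs from 2 mice. The p-values below therefore measure a spread over arrays, which may be technical, and not a spread over 4 animals. No probe of Ndst1 was analysed here, so the genotype labels were not checked.

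Macrophages grown in macrophage colony stimulating factor depend on the receptor of that factor, which signals through the MAP kinase cascade and drives growth. Several groups of genes known in macrophages are read below. Among them are the chemokines that recruit monocytes, the matrix proteases and the feedback genes of MAP kinase signalling. Genes of settled tissue macrophages and genes of antigen presentation are further groups. Whether any of these groups change together as a programme was not tested. Aggregated LDL is taken up and stored as cholesterol ester in lipid droplets, and heparan sulfate, which Ndst1 modifies, binds lipoproteins and chemokines at the cell surface.

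Values are background-corrected, quantile-normalized bead intensities on the log2 scale. A probe counts as detected where its detection p-value is under 0.01. The 8 arrays were alike in overall signal, with raw medians between 148 and 157 and between 9500 and 10115 detected probes. The raw 75th percentile was higher on 1.2 in 4 of 4 pairs, at 342 to 386 against 312 to 351. Arrays lay nearest to arrays of their own number: for each of the 8, the nearest array had the same number and another label. The root mean square distance over all genes was 0.280 ± 0.018 among arrays 1.1 (SD, 6 pairs of arrays) and 0.336 ± 0.099 among arrays 1.2 (SD, 6 pairs). Between the 2 arrays of one label it was 0.444 ± 0.069 (SD, 4 pairs). The number took up 48.4% of the variance over genes, against 14.3% for a random split of this kind, and the 4 labels took up 31.1%, against 42.9%. Each share was taken alone. As the number holds 48.4%, less is left for the labels, and their share cannot be read as below chance. The Ndst1-deficient untreated 1.2 array stood apart from the other arrays 1.2, at distances of 0.391 to 0.449, and had the most detected probes. On each slide the arrays 1.1 took positions C and G and the arrays 1.2 positions D and H, so the number and the position cannot be told apart. Each slide held 1 genotype label and both numbers, so values within a slide are given.

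Limma called 1529 of 7368 genes and unnamed probes (20.8%) at an adjusted p under 0.05, with the pair as a block. Of these, 728 were higher on arrays 1.2 (9.88% of those tested) and 801 were lower (10.9%). A difference of 1.5-fold or more was found for 678 of them (9.2%), 368 higher and 310 lower, and 101 were 2-fold or more higher against 53 lower. Of the called genes 1521 had the same sign in all 4 pairs. Levels on arrays 1.2 and 1.1 did not overlap for 1860 genes (25.2%). Genes were tested if detected on at least 4 of the 8 arrays. Of the 7368 tested, 29 were detected on no array 1.1 and 11 on no array 1.2. All 29 were called higher and all 11 lower, so this filter favoured their calls. Among the lists below they number 3 stress response, 2 chemokine, 2 immediate early, 1 LXR, 1 replication and 1 neutrophil gene. They are counted in the shares given. The count of 1529 was 1320 without the Ndst1-deficient untreated pair, 1170 without the wild-type untreated pair, 714 without the wild-type agLDL pair and 535 without the Ndst1-deficient agLDL pair. Within the slide of the wild-type label 24 genes were called and 1635 had an unadjusted p under 0.05. Within that of the Ndst1-deficient label 1025 were called and 1978 had such a p, each fit on 2 pairs. With so few pairs the called counts depend on the variance that limma pools over genes in each fit. The counts of the 2 slides therefore cannot be compared as a contrast of genotype labels. All 1529 had the same direction on both slides. They were called on these same 4 pairs, so this was nearly given in advance and is no independent check.

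**Figure D1:**
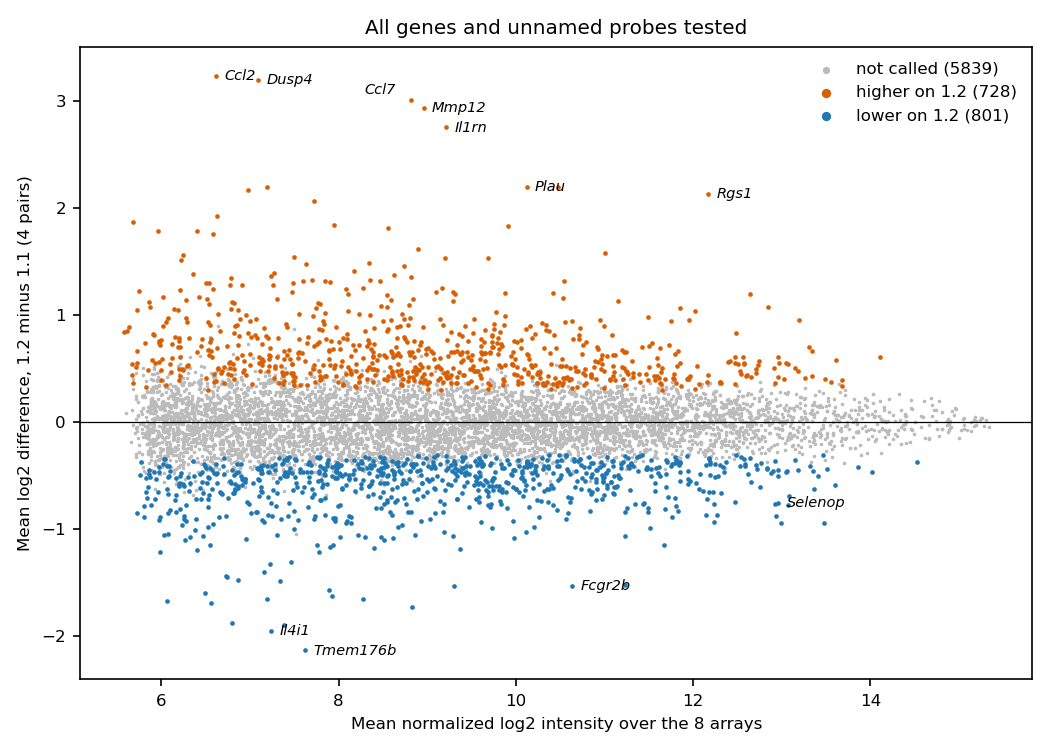
Mean normalized log2 intensity over the 8 arrays (x axis) against the mean log2 difference of 4 pairs, 1.2 minus 1.1 (y axis), for all 7368 genes and unnamed probes tested. Orange points are the 728 called higher on arrays 1.2, blue points the 801 called lower, and the upper tail, led by Ccl2, Dusp4, Ccl7, Mmp12 and Il1rn, reaches further from 0 than the lower tail.

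The genes with the largest differences higher on arrays 1.2 were 2 monocyte chemokines, a MAP kinase phosphatase, a macrophage elastase and the interleukin 1 receptor antagonist. In what follows, the values of a gene are given in the order wild-type untreated, wild-type with agLDL, Ndst1-deficient untreated and Ndst1-deficient with agLDL. Ccl2, the main ligand of the monocyte receptor CCR2, read 5.13, 5.27, 4.67 and 4.90 on arrays 1.1 and 7.75, 8.19, 8.06 and 8.93 on arrays 1.2. It was detected on 0 of 4 arrays 1.1 and on 4 of 4 arrays 1.2, and was at least 5.12-fold higher on 1.2 (limma adjusted p = 0.00038). Ccl7, another CCR2 ligand, read 7.63, 7.39, 7.01 and 7.20 on arrays 1.1 and 9.92, 10.62, 9.80 and 10.93 on arrays 1.2. Every array 1.2 lay above every array 1.1 for both chemokines, and the Ndst1-deficient agLDL array was the highest of the arrays 1.2. The log2 difference of Ccl7 was 3.01 ± 0.21 (SE, 4 pairs, limma adjusted p = 0.00056), and that of Ccl12, a further CCR2 ligand, was 1.199 ± 0.14 (adjusted p = 0.00285).

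Of 15 measured chemokines 9 rose on arrays 1.2 and 4 fell, 86.7% called against 20.8% of all genes. Their median difference was 0.61 against -0.02 over all genes. Besides the CCR2 ligands, those that rose were Ccl3, Ccl4, Ccl6, Cxcl1, Cxcl2 and Cxcl14. Cxcl2, a neutrophil attractant, was detected on no array 1.1 and was at least 2.15-fold higher on 1.2 (limma adjusted p = 0.00167). The members that fell were Ccl5, Ccl8, Cxcl10 and Cxcl16. Cxcl10, an interferon-induced attractant of T cells, read 8.93, 9.48, 9.03 and 9.18 on arrays 1.1 and 8.23, 7.78, 8.47 and 7.81 on arrays 1.2. These groups do not overlap, and the log2 difference was -1.08 ± 0.19 (SE, 4 pairs, limma adjusted p = 0.00932). Without any one pair, 8 or 9 chemokines were called higher and 2 or 3 lower, and Cxcl16 was lost without each of the 4.

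Cytokines and NF-kB feedback genes went both ways, 4 of 16 higher and 4 lower, with a median of -0.05. In this list 50% were called, against 20.8% of all genes. Il1rn, which blocks the interleukin 1 receptor, read 8.07, 7.89, 7.52 and 7.86 on arrays 1.1 and 10.62, 10.83, 10.13 and 10.78 on arrays 1.2. Il1b, an agonist of the same receptor, read 7.47, 8.92, 8.05 and 8.91 on arrays 1.1 and 7.05, 6.61, 6.44 and 5.65 on arrays 1.2. Neither gene had overlapping groups, and they moved in opposite directions: Il1rn differed by 2.75 ± 0.11 (adjusted p = 6.9e-05) and Il1b by -1.90 ± 0.39 (adjusted p = 0.0148, limma, SE, 4 pairs). The difference of Il1b was -0.43 in the untreated wild-type pair and -3.25 in the Ndst1-deficient agLDL pair, and without the wild-type agLDL pair the call was lost (adjusted p = 0.0575). Il1b was detected on 3 of 4 arrays 1.2. Il1a, chosen after its values were seen, was higher on 1.2 (1.30, detected on 1 of 4 arrays 1.1), so the agonists did not move together. The inflammatory cytokine Tnf was also higher (1.14 ± 0.16, adjusted p = 0.00403), and the anti-inflammatory Il10 was lower (-0.72 ± 0.12, adjusted p = 0.0078). The NF-kB cofactor Nfkbiz fell by 0.99 on the log2 scale (SE 0.10).

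**Figure D2:**
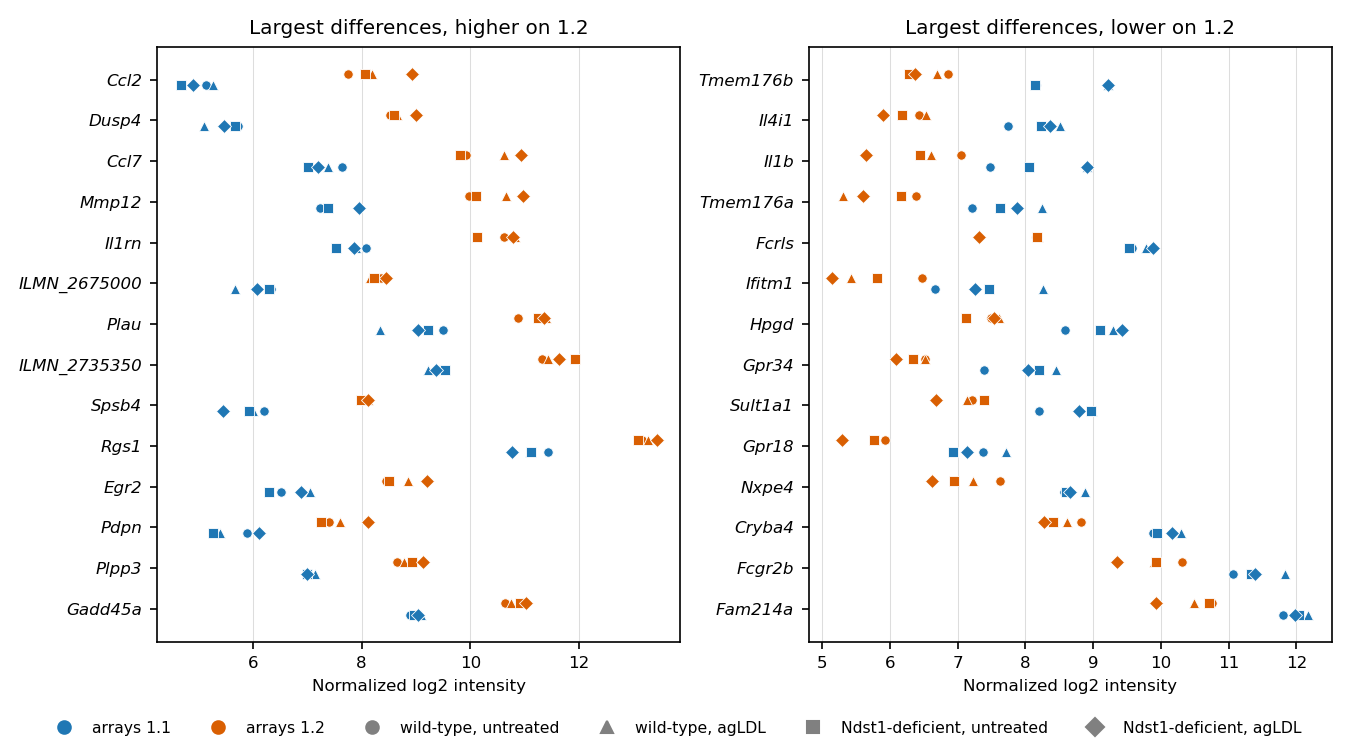
Normalized log2 intensity (x axis) on each of the 8 arrays for the 14 genes or unnamed probes with the largest called differences higher on arrays 1.2 (left) and the 14 lower (right). Colour gives the number and shape the genotype and agLDL label. In each of the 28 the arrays 1.2 and 1.1 do not overlap, against 25.2% of all genes tested. The 28 were picked for large called differences on these same arrays, so this was nearly given in advance and is no independent check.

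Immediate early genes and feedback genes of MAP kinase signalling were called higher in 9 of 18 cases and lower in 3, against 9.88% and 10.9% of all genes, with a median of 0.42. Dusp4, a phosphatase that switches off MAP kinases in the nucleus, read 5.72, 5.10, 5.68 and 5.47 on arrays 1.1 and 8.52, 8.65, 8.59 and 8.99 on arrays 1.2. These values are from ILMN_2689731, detected on 0 of 4 arrays 1.1 and at least 7.02-fold higher on 1.2 (limma adjusted p = 0.00015). The other kept probe of Dusp4, ILMN_2870965, had a smaller log2 difference, 1.57 against 3.20 (limma, p adjusted over probes = 0.00173 for ILMN_2870965). Dusp6, which acts on ERK in the cytoplasm, read 10.66, 10.22, 9.98 and 9.997 on arrays 1.1 and 11.54, 11.78, 11.64 and 12.22 on arrays 1.2, a difference of 1.58 ± 0.20 (SE, 4 pairs, adjusted p = 0.00313). The transcription factor Egr2 differed by 2.07 ± 0.11 and Jun, a subunit of AP-1, by 0.74 ± 0.09. The other members called higher were Atf3, Dusp1, Etv5, Fos and Phlda1. Ier3, Junb and Klf2 were lower, while Egr1, the best known member, was not called. Rgs1, a regulator of G protein signalling that limits chemokine responses, was bright on every array, at 11.43, 11.10, 11.12 and 10.76 on arrays 1.1 and 13.16, 13.27, 13.08 and 13.43 on arrays 1.2. It differed by 2.13 ± 0.15 (adjusted p = 0.00057).

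Of 12 measured proteases and plasminogen activation genes, 7 rose and 2 fell, with a median of 0.52. These 75% called compare with 20.8% of all genes. Mmp12, the macrophage elastase, read 7.23, 7.38, 7.39 and 7.96 on arrays 1.1 and 9.97, 10.65, 10.11 and 10.97 on arrays 1.2. The groups stood apart by more than the range within either, and the difference of 2.94 ± 0.12 (SE, 4 pairs) shared with Il1rn the smallest adjusted p of the comparison (limma, 6.9e-05). Plau, the urokinase that turns plasminogen into plasmin, read 9.50, 8.33, 9.22 and 9.03 on arrays 1.1 and 10.88, 11.40, 11.25 and 11.36 on arrays 1.2. Its lowest value on 1.1 was on the wild-type agLDL array, and its difference was 2.199 ± 0.24 (adjusted p = 0.00199). Its receptor Plaur, detected on 3 of 4 arrays 1.1 and 4 of 4 arrays 1.2, differed by 1.28 ± 0.11, the collagenase Mmp13 by 0.95 ± 0.11 and the collagen-degrading cathepsin Ctsk, also detected on 3 of 4 arrays 1.1, by 1.11 ± 0.16. The gelatinases Mmp2 and Mmp9 were lower, Mmp9 by -0.48 (adjusted p = 0.0312), a call that was lost without any one of 3 of the 4 pairs.

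The promoters of these proteases were read for the element bound by AP-1. Among AP-1 subunits, Jun and Fos were called higher, Junb was called lower and Jund was not called. The search for TGANTCA on both strands, in 250 bases before to 50 after each RefSeq start (GRCm38.p6), was chosen with the genes and their differences in view, so its counts are a description. It matched in 3 of the 6 called-higher proteases with a promoter in the table and in 0 of the 2 not called. It matched in 8.97% of all 27025 genes with one and in 6.25% of the 5662 tested. Among genes called 2-fold or more higher it matched in 11 of 73, and among those 2-fold or more lower in 2 of 44. The match lies 44 bases before the start in Mmp12, 35 in Mmp13 and 69 in Plaur. A match describes the letters only. The element is in capitals:
Mmp12, chr9:7347310-7347356, plus strand: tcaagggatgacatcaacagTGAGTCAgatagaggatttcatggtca
Mmp13, chr9:7272459-7272505, plus strand: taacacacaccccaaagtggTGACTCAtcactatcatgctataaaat
Plaur, chr7:24462394-24462440, plus strand: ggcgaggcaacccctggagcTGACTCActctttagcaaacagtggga

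Genes of the integrated stress response and the unfolded protein response rose in 14 of 28 cases and fell in 2, with a median of 0.42. Among the 14 are 3 (Chac1, Trib3 and Pdia6) that passed the detection filter only through arrays 1.2. In all 57.1% were called, against 20.8% of all genes. Chac1, a glutathione-degrading target of the factor ATF4, read 5.57, 5.20, 5.80 and 5.46 on arrays 1.1 and 7.29, 7.26, 7.07 and 7.59 on arrays 1.2, and was detected on 0 of 4 arrays 1.1. It was at least 2.68-fold higher on 1.2 (limma adjusted p = 0.00108). The pseudokinase Trib3 and the disulfide isomerase Pdia6 were also detected only on arrays 1.2, where they were at least 1.46-fold and 1.79-fold higher (adjusted p = 0.00108 and 0.00113). Asns, the asparagine synthetase, and Aars, an aminoacyl-tRNA synthetase, differed by 1.25 ± 0.20 and 0.67 ± 0.11, and are given here for their promoters, after their values were seen. Atf4 itself was called higher, as were Psat1, Mthfd2, Slc7a5 and Sars of amino acid supply and Xbp1, Calr, Creld2 and Pdia4 of the endoplasmic reticulum. Ddit4, an inhibitor of mTOR signalling, and Herpud1 were lower, Ddit4 by -0.98 (adjusted p = 0.00368, detected on 3 of 4 arrays 1.2). Without any one pair, 11 to 14 members were called higher.

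The element TGATGNAA, bound by ATF4 with its partners, was searched in the same promoters and was likewise chosen with the differences in view. It matched in 4 of the 13 called-higher members with a promoter in the table (Aars, Asns, Chac1 and Trib3), in 1 of the 2 called lower and in 0 of the 11 not called. It matched in 4.51% of all genes and in 3.09% of those tested. The match lies 112 bases before the start in Aars, 23 in Asns and 193 in Chac1, and past the start in Trib3, which is not printed. Capitals mark the element, on either strand:
Aars, chr8:111033710-111033757, plus strand: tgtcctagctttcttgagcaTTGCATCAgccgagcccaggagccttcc
Asns, chr6:7693210-7693252, minus strand: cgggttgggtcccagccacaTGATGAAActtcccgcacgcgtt
Chac1, chr2:119351029-119351076, plus strand: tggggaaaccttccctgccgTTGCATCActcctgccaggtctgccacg

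Of 18 ribosome biogenesis genes 13 rose and 0 fell, 72.2% called against 20.8% of all genes. The 18 differences lay between 0.05 and 1.13 with a median of 0.60. Gnl3, the nucleolar GTPase nucleostemin, read 10.68, 10.56, 10.71 and 10.41 on arrays 1.1 and 11.74, 11.70, 11.53 and 11.92 on arrays 1.2, a difference of 1.13 ± 0.13 (SE, 4 pairs, limma adjusted p = 0.00223). The groups do not overlap. Rrp12, a factor of ribosomal subunit export, differed by 0.97 ± 0.17, the RNA polymerase I subunit Polr1a by 0.77 ± 0.13 and the processing factor Utp4 by 0.65 ± 0.10. The cytosolic ribosomal proteins themselves did not share this, with 0 of 47 higher, 2 lower and a median of -0.05. The count of 13 was 12 without the wild-type untreated pair, 11 without the Ndst1-deficient untreated pair, 7 without the wild-type agLDL pair and 4 without the Ndst1-deficient agLDL pair. Over all 7368 tested, those called higher were 588, 628, 369 and 305 in the same order, against 728 with all pairs.

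Of 35 DNA replication and mitosis genes 8 were called higher and 3 lower, against 9.88% and 10.9% of all genes tested. In all 31.4% were called, against 20.8% of all genes. The 8 act in the start of the cycle and in replication: Ccnd1, Ccne1, Cdc45, Mcm2, Mcm3, Mcm5, Mcm7 and Pcna. Many other members that act at these steps were not called, among them Ccne2, Cdc6, E2f1, Mcm4, Mcm6, Rrm1, Rrm2 and Tyms. Ccnd1, the cyclin induced by growth factors, read 12.73, 11.87, 12.52 and 12.11 on arrays 1.1 and 13.26, 13.30, 13.36 and 13.61 on arrays 1.2. The groups do not overlap, and the difference was 1.08 ± 0.17 (SE, 4 pairs, limma adjusted p = 0.00662). The replicative helicase subunits Mcm2 and Mcm3 differed by 1.01 ± 0.18 and 1.01 ± 0.17. The 3 lower members, Cdc20, Cenpa and Kif22, act in mitosis, and Cenpa, the centromeric histone, differed by -0.76 ± 0.15. Being 3 of 35, they are not above the 10.9% of all genes called lower, and no pattern is read from them. Other genes of mitosis, among them Aurka, Cdk1, Plk1 and Top2a, were not called. When a pair was left out, 3 to 10 members were called higher, the fewest without the Ndst1-deficient agLDL pair. In that fit 305 of all 7368 were called higher, against 728 with all pairs. Ctps, which makes the nucleotide CTP, rose by 1.41 (adjusted p = 0.00482). Of 19 glycolysis and hypoxia genes 5 rose and 0 fell, among them the phosphofructokinase Pfkp (0.88 ± 0.12), the pyruvate kinase Pkm (0.70 ± 0.11) and the glucose transporter Slc2a1 (0.49 ± 0.12). The call of Cenpa was lost without either agLDL pair, and that of Slc2a1 without any one pair other than the untreated Ndst1-deficient pair.

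Each number held arrays of loaded and of unloaded cells, so lipid genes were read across both. Of 14 lipid droplet genes 4 were called higher and 1 lower (35.7%, against 20.8% of all genes), with a median of 0.21. Hilpda, a droplet protein that inhibits the lipase ATGL, read 8.92, 9.08, 8.89 and 8.77 on arrays 1.1 and 10.24, 10.50, 10.30 and 10.76 on arrays 1.2. It was higher on every array 1.2 than on any array 1.1, by 1.54 ± 0.13 (SE, 4 pairs, limma adjusted p = 0.00108). Plin2, the droplet coat protein, read 10.78, 11.58, 10.69 and 10.97 on arrays 1.1 and 12.09, 12.49, 11.09 and 12.26 on arrays 1.2. Its groups overlap, since the untreated Ndst1-deficient 1.2 array lay below the agLDL wild-type 1.1 array, and its difference was 0.98 ± 0.16 (adjusted p = 0.00721). Within arrays of one number, Plin2 read higher with agLDL than without in each genotype label. Lpin1, which makes the diacylglycerol for storage, was lower (-0.58 ± 0.15), and its call was lost without any one of 3 of the 4 pairs.

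Among 12 LXR and cholesterol efflux genes 4 were called higher (33.3%, against 9.88% of all genes) and 0 lower. Nr1h3, which encodes LXRα, read 10.90, 10.89, 10.94 and 10.87 on arrays 1.1 and 11.52, 11.32, 11.83 and 11.54 on arrays 1.2, a difference of 0.65 ± 0.10 (SE, 4 pairs, limma adjusted p = 0.00662). The groups do not overlap. The exporter Abcg1 differed by 0.90 ± 0.15 and the acyltransferase Lpcat3 by 0.45 ± 0.10. Mylip, which degrades the LDL receptor, was detected on 0 of 4 arrays 1.1 and was at least 1.57-fold higher on 1.2 (adjusted p = 0.0302). Cd36, a scavenger receptor for modified LDL, was detected on 1 of 4 arrays 1.1 and 4 of 4 arrays 1.2 and differed by 0.97 ± 0.12 (adjusted p = 0.0029). The endocytic receptor Stab1 was lower (-0.50 ± 0.11). Sterol and fatty acid synthesis was near the background, with 1 of 19 higher and 2 lower, the desaturase Fads1 (-0.58 ± 0.11) and the sterol carrier Stard4 (-0.79 ± 0.13, detected on 1 of 4 arrays 1.2). The call of Lpcat3 was lost without any one pair other than the wild-type agLDL pair. That of Mylip was lost without the untreated wild-type or the Ndst1-deficient agLDL pair, and that of Stab1 without either agLDL pair.

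Heparan sulfate is the polymer that the enzyme missing under the Ndst1-deficient label modifies. Of its 16 measured synthesis and degradation genes 2 were higher and 2 lower, with a median of -0.05. These 25% called lie near the 20.8% of all genes. B3galt6, which builds the linker of the chain to its core protein, read 7.45, 7.52, 7.45 and 7.45 on arrays 1.1 and 8.08, 8.48, 8.03 and 8.37 on arrays 1.2, and Ext1, a subunit of the chain polymerase, differed by 0.64 ± 0.11 against 0.77 ± 0.11 for B3galt6 (SE, 4 pairs, limma adjusted p = 0.00932 and 0.00403). The arrays of B3galt6 do not overlap. The sulfotransferase Hs2st1 (-0.58 ± 0.10) and the degrading enzyme heparanase, Hpse (-0.58 ± 0.13), were lower. Of 7 core proteins 1 was called higher, Col18a1 (0.74 ± 0.19), whose difference was -0.01 in the untreated Ndst1-deficient pair. The call of Hs2st1 was lost without the Ndst1-deficient agLDL pair, that of Hpse without any one pair but the untreated wild-type pair, and that of Col18a1 without any one but the untreated Ndst1-deficient pair.

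**Figure D3:**
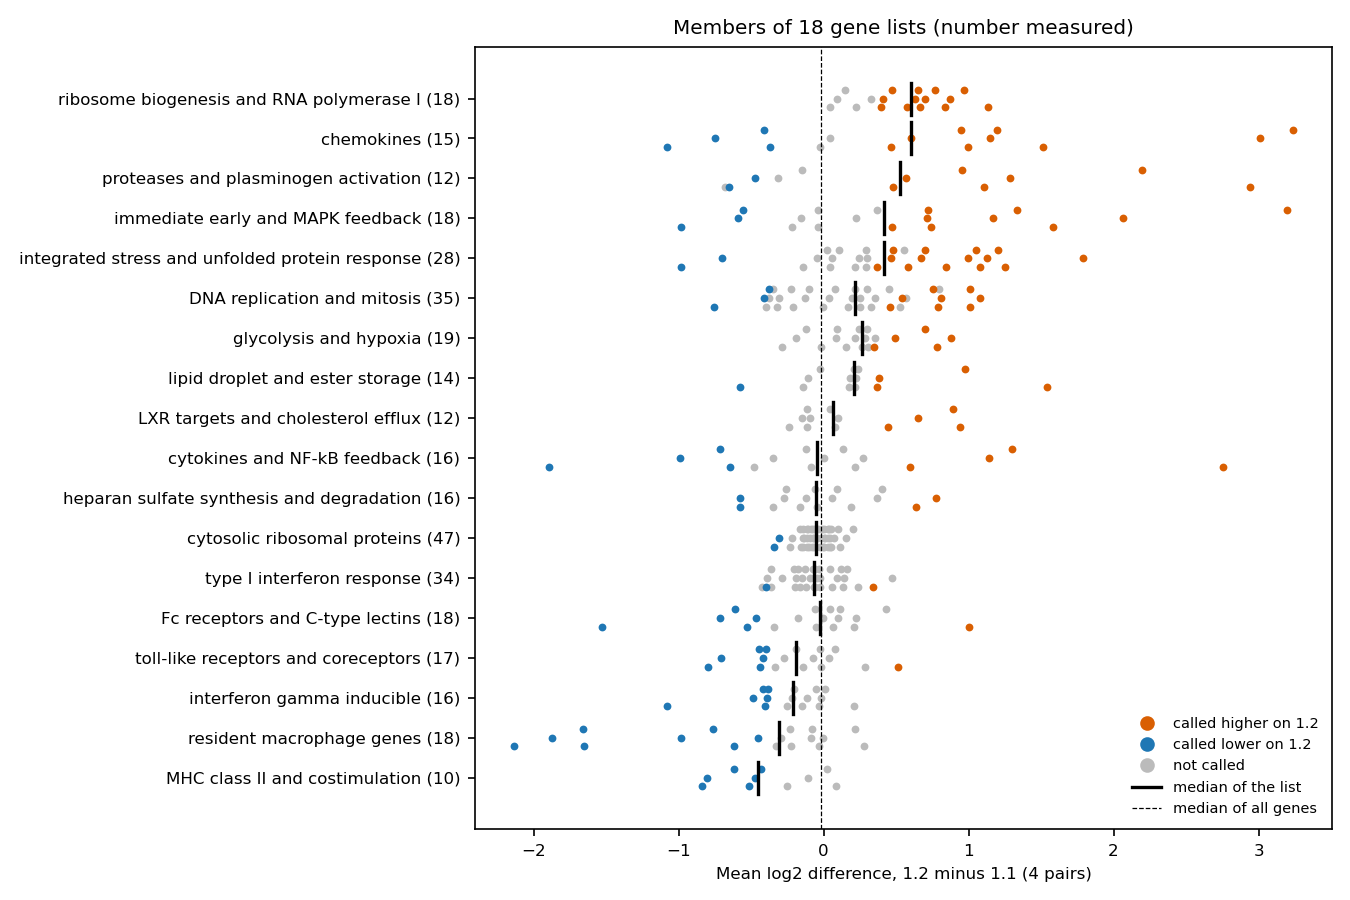
Mean log2 difference of 4 pairs, 1.2 minus 1.1 (x axis), for each measured member of the gene lists on the y axis, with the number measured in brackets. Orange and blue points were called higher and lower, grey points were not called, black bars are list medians and the dashed line is the median of all genes (-0.02). Ribosome biogenesis has 13 of 18 called higher, and MHC class II 6 of 10 called lower, against 9.88% and 10.9% of all genes.

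On the lower side stood genes of settled tissue macrophages. Of 18 measured, 8 fell and 0 rose (44.4% called, against 20.8% of all genes), with a median of -0.31. Tmem176b, an intracellular cation channel, read 8.16, 9.22, 8.14 and 9.23 on arrays 1.1 and 6.85, 6.70, 6.28 and 6.37 on arrays 1.2. Tmem176a, its neighbour in the genome and partner, read 7.21, 8.25, 7.63 and 7.87 on arrays 1.1 and 6.39, 5.32, 6.16 and 5.60 on arrays 1.2. The arrays do not overlap for either gene. The differences were -2.14 ± 0.24 and -1.88 ± 0.30 (SE, 4 pairs, limma adjusted p = 0.00219 and 0.00689), and Tmem176a was detected on 2 of 4 arrays 1.2. Hpgd, which inactivates prostaglandins, differed by -1.66 ± 0.15, and the receptor Gpr34 by -1.65 ± 0.19. The selenium carrier Selenop differed by -0.76 ± 0.19, a call that was lost without either agLDL pair. Ednrb, F13a1 and Gas6 were also called lower, while C1qa, C1qb, C1qc, Mrc1 and Mertk were not called. Without any one pair, 5 to 8 members were called lower and 0 higher.

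Other genes with the largest differences lower on arrays 1.2 were Il4i1, an amino acid oxidase (-1.95 ± 0.17), Fcrls, a receptor of the Fc receptor family that in brain marks microglia (-1.73 ± 0.20), and Ifitm1, a membrane protein induced by interferon (-1.70 ± 0.36). Fcrls read 9.58, 9.77, 9.54 and 9.88 on arrays 1.1 and 8.16, 8.19, 8.17 and 7.32 on arrays 1.2. The Ndst1-deficient agLDL 1.2 array was the lowest by a wide margin, and the groups do not overlap. The sulfotransferase Sult1a1 differed by -1.63 ± 0.17, the lipid receptor Gpr18 by -1.60 ± 0.14, Nxpe4 by -1.57 ± 0.17, the crystallin Cryba4 by -1.54 ± 0.14 and Fam214a by -1.53 ± 0.16 (SE, 4 pairs, limma adjusted p between 0.00108 and 0.0176 for these 8). Ifitm1 and Gpr18 were detected on 2 of 4 arrays 1.2. The call of Ifitm1 was lost without any one pair other than the untreated wild-type pair. The counterparts on the higher side were Spsb4, an adaptor of a ubiquitin ligase (2.17 ± 0.14, detected on 3 of 4 arrays 1.1), the membrane glycoprotein podoplanin, Pdpn (1.93 ± 0.13, detected on 1 of 4 arrays 1.1), the lipid phosphatase Plpp3 (1.84 ± 0.11) and the growth arrest gene Gadd45a (1.84 ± 0.10). Probes ILMN_2675000 and ILMN_2735350, which have no gene symbol here and were detected on 3 and 4 of 4 arrays 1.1, were 4.59-fold and 4.58-fold higher.

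Of 10 measured MHC class II and costimulation genes 6 fell and 0 rose, with a median of -0.45. That is 60% called, against 20.8% of all genes. H2-Eb1, a class II chain that presents peptides, read 7.40, 7.74, 7.47 and 7.36 on arrays 1.1 and 6.87, 6.77, 6.81 and 6.15 on arrays 1.2. Cd86, the costimulatory ligand of CD28, read 11.65, 11.83, 11.60 and 11.54 on arrays 1.1 and 11.22, 10.96, 10.39 and 10.82 on arrays 1.2. Neither gene had overlapping groups, and they differed by -0.84 ± 0.13 and -0.80 ± 0.13 (SE, 4 pairs, limma adjusted p = 0.00602 and 0.00747). The peptide-loading chain H2-DMa (-0.62 ± 0.10) and the invariant chain Cd74 (-0.51 ± 0.10) were lower too, as were Cd40 and H2-DMb1. Cd80, Cd83, Ctss and H2-Ab1 were not called. Of 16 genes induced by interferon gamma 6 fell and 0 rose (37.5% called), with a median of -0.21. Among those that fell were the transcription factor Irf1 (-0.49 ± 0.10) and the GTPases Gbp2 (-0.38 ± 0.10) and Gbp3 (-0.42 ± 0.11). The other kept probe of Gbp2, ILMN_3047389, differed by -0.15 and was not called (limma adjusted p over probes = 0.481). Of 34 type I interferon response genes only Oas2 was lower and Tor3a higher, and the median was -0.07. The call of Tor3a was lost without each of the 4 pairs, and its 3 kept probes differed by 0.34, 0.22 and -0.14. That of Oas2 was lost without any one pair other than the untreated wild-type pair. Without the Ndst1-deficient agLDL pair, 3 MHC class II genes and 1 interferon gamma gene were called, when 535 of all 7368 were called, against 1529 with all pairs. The calls of Cd74, Irf1, Gbp2 and Gbp3 were lost without either agLDL pair, that of Gbp2 also without the untreated wild-type pair and that of Gbp3 also without the untreated Ndst1-deficient pair.

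Receptors that sense microbes were lower in part. Of 17 Toll-like receptors and coreceptors 6 fell and 1 rose (41.2% called, against 20.8% of all genes), with a median of -0.19. Tlr2, which senses lipoproteins of bacteria, read 11.95, 12.04, 12.13 and 12.13 on arrays 1.1 and 11.53, 11.33, 11.31 and 11.26 on arrays 1.2. Tlr4, which senses lipopolysaccharide, read 10.52, 10.32, 10.42 and 10.39 on arrays 1.1 and 10.73, 10.94, 10.96 and 11.07 on arrays 1.2. The arrays of each gene do not overlap, and the receptors went in opposite directions: Tlr2 differed by -0.70 ± 0.11 and Tlr4 by 0.51 ± 0.11 (SE, 4 pairs, limma adjusted p = 0.00571 and 0.0169). The adaptor Ticam2 (-0.80 ± 0.10), the chaperone Unc93b1 (-0.44 ± 0.09) and the coreceptor Cd14 (-0.40 ± 0.11) were lower. Of 18 Fc receptors and C-type lectins 5 fell and 1 rose (33.3% called), but their median was -0.03 against -0.02 over all genes. Fcgr1, Fcgr3, Fcgr4, Clec7a and Trem2 were among those not called. Fcgr2b, the inhibitory receptor for IgG, read 11.07, 11.84, 11.32 and 11.38 on arrays 1.1 and 10.31, 9.90, 9.92 and 9.36 on arrays 1.2, without overlap, and differed by -1.53 ± 0.20 (adjusted p = 0.0038). Clec4a1 (-0.72 ± 0.10) and the IgG transporter Fcgrt (-0.61 ± 0.14) were also lower, and the inhibitory receptor Cd300lf was higher (1.01 ± 0.17). Tlr4, Unc93b1, Cd14 and Fcgrt lost their calls without either agLDL pair, Cd14 also without the untreated wild-type pair and Fcgrt also without the untreated Ndst1-deficient pair.

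Markers of cell identity were read beside these differences. Between 9 and 10 of 10 macrophage markers were detected on each array, and their summed signal was 78158 to 85330 on arrays 1.1 and 68514 to 75568 on arrays 1.2. Adgre1, which encodes F4/80, was lower (-0.45 ± 0.10, limma adjusted p = 0.0193), as was Cd14, and the other 7 of 9 tested were not called on the probe that stood for the gene. For Lyz2, which encodes lysozyme M, that probe read 15.23 to 15.32 on all 8 arrays and differed by -0.04. Its probe ILMN_2766780 was lower, by -0.71 (limma adjusted p over probes = 0.0153). Of 11 tested neutrophil markers 4 rose (36.4%, against 9.88% of all genes): the primary granule genes Ctsg, Elane, Mpo and Prtn3. Elane read 6.17, 6.29, 6.58 and 6.48 on arrays 1.1 and 7.28, 7.29, 7.29 and 7.27 on arrays 1.2, without overlap, a difference of 0.90 ± 0.10 (adjusted p = 0.00273). Ctsg was detected on 0 of 4 arrays 1.1 and was at least 2.22-fold higher on 1.2, Mpo differed by 1.39 ± 0.22 and Prtn3, detected on 3 of 4 arrays 1.1, was 2.14-fold higher. The later granule and cytosol genes Ltf, Camp, Ngp, Lcn2, S100a8 and S100a9 were not called, and the summed signal of the whole list was 15929 to 21691 on arrays 1.1 and 16882 to 20604 on arrays 1.2. Of the B cell markers Cd79b was lower (-0.73 ± 0.11), and of the osteoclast markers Ctsk was higher and Mmp9 and Nfatc1 (-0.62 ± 0.12) were lower. T and NK cell and mast cell markers were detected on 0 of 8 arrays. The call of Adgre1 was lost without either agLDL pair, that of Nfatc1 without the Ndst1-deficient agLDL pair and that of Prtn3 without the untreated Ndst1-deficient pair. In such bulk samples fewer cells of a type and less RNA per cell cannot be told apart, and the part of these markers in the gene lists above was not tested.

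The 4 pairs differed in how far their arrays lay apart. The untreated wild-type pair had a root mean square difference of 0.340 and 98 genes 2-fold or more apart. The other pairs had 0.474 and 325 (wild-type, agLDL), 0.482 and 303 (Ndst1-deficient, untreated) and 0.479 and 348 (Ndst1-deficient, agLDL). The differences of any 2 pairs correlated over genes with Pearson coefficients of 0.517 to 0.776, the highest between the agLDL pairs, and genes are not independent replicates. Limma's test of whether the difference between numbers itself differed with the agLDL label called 0 of 7368 (0%), with a smallest adjusted p of 0.543 and 608 genes at an unadjusted p under 0.05. The same test by genotype label called 0 (0%), with a smallest adjusted p of 0.999 and 275 at an unadjusted p under 0.05, where chance alone gives 368. In the alternatives run, the smallest adjusted p was 0.0541 by agLDL label (with an intensity trend) and 0.106 by genotype label (without the untreated wild-type pair). The largest spread among the leading genes was that of Il1b, whose differences were -0.43, -2.30, -1.60 and -3.25, and of Ifitm1, at -0.20, -2.83, -1.65 and -2.11. In Mmp12 they were 2.74, 3.27, 2.72 and 3.02, and in Il1rn 2.55, 2.94, 2.61 and 2.92. The first 2 genes thus ranged from near 0 to several units, and the last 2 stayed within 1 unit. Within the slide of the wild-type label Ccl7 differed by 2.76 and Tmem176b by -1.91, and within that of the Ndst1-deficient label by 3.26 and -2.36.

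**Figure D4:**
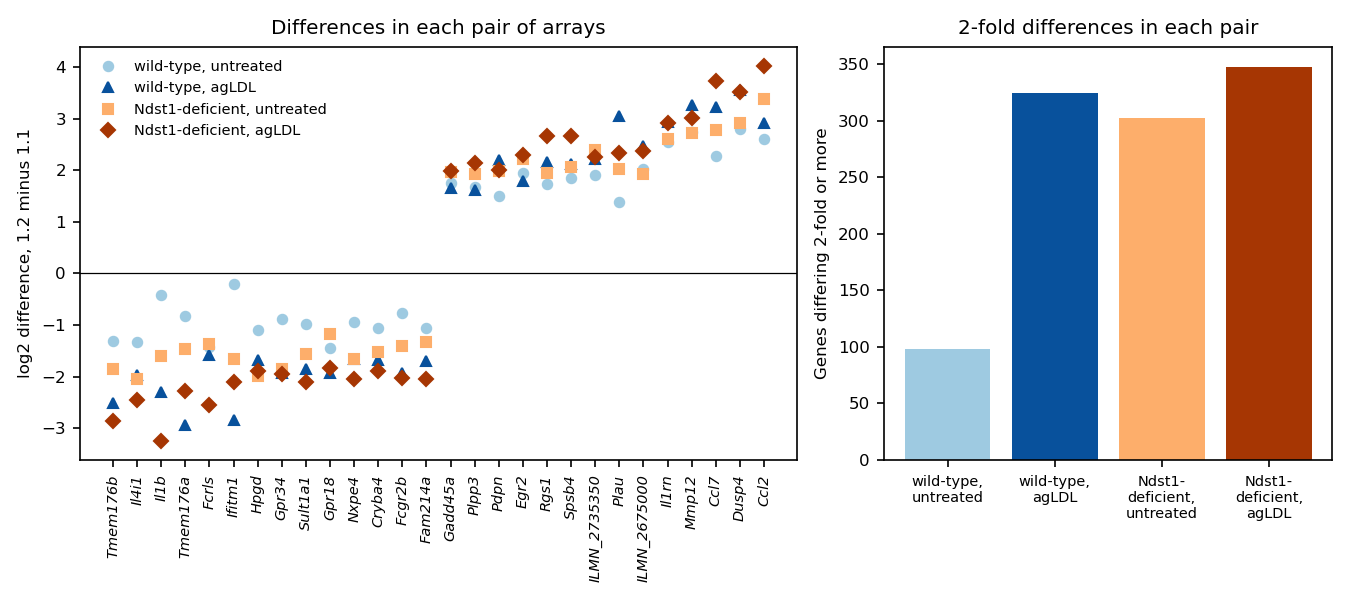
Left, log2 difference 1.2 minus 1.1 (y axis) in each of the 4 pairs for the 28 genes or unnamed probes with the largest called differences (x axis). Right, number of genes 2-fold or more apart in each pair (y axis), from 98 in the untreated wild-type pair to 348 in the Ndst1-deficient agLDL pair.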

How the data were processed

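The deposited table held, for each array and probe, a mean bead intensity that was not normalized between arrays and a detection p-value, per the file headers. The submitters' processing notes name GenomeStudio without a version. The authors' own processed intensities, deposited as a matrix, served as an alternative. The platform annotation paired 23978 of the 25697 probes with 1 gene symbol and left 1719 unnamed.

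Intensities of all 16 arrays were background-corrected, quantile-normalized and put on the log2 scale (neqc, offset 16) with limma 3.58.1 and statmod 1.5.0 in R 4.3.3. Probes detected (p under 0.01) on at least 4 of the 8 arrays were kept, 9787 in all. The probe detected on most arrays, then the brightest, stood for its gene, giving 6827 genes and 541 unnamed probes. Of 1776 genes with several kept probes, 495 had any called, 189 had all called and 0 had calls in opposite directions. For a gene detected on no array of one number, a fold is given as a lower bound, with its value on each undetected array raised to the dimmest detected probe of that array where it was below it.

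Limma fitted the pair as a block and the number as a term (lmFit, eBayes, 3 residual degrees of freedom), with Benjamini-Hochberg adjustment over all 7368. The pairing comes from the labels, since both arrays of a pair carry one mouse and treatment. As a check, deviations from the number means correlated within pairs between -0.001 and 0.353 and across labels between -0.308 and 0.290, and 2 of 4 arrays correlated best with their own label. An exact sign-flip test of 4 pairs cannot go below p = 0.125 and was not used. Named genes are the 14 largest called differences in each direction and up to 4 members with the smallest p of each of 32 gene lists and 10 marker lists. Genes, lists and tests were chosen with earlier results of these data known. Ndst1 probes were not analysed here. Promoter sequences are from RefSeq (GRCm38.p6).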

Additional observations from a re-analysis of the deposited data

Results flagged for a closer look

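For 14 of 226 sets of 4 arrays (the genes named with a value and 3 array measures, on each number), the highest or lowest array lay far from the other 3 by Dixon's test at the 95% level. Chance alone gives about 1 in 20 such sets.

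On arrays 1.2 the Ndst1-deficient agLDL array was the lowest for Fcrls (7.32, others 8.16 to 8.19), the stress gene Ddit4 (5.65, others 6.16 to 6.17) and the class II chain H2-Eb1 (6.15, others 6.77 to 6.87). Ddit4 was not detected on that array, so its reading there lies in the background. The untreated Ndst1-deficient array, which stood apart over all genes, was the lowest for Fads1 (11.29, others 11.72 to 11.80) and for the torsin Tor3a (9.51, others 10.15 to 10.23). The wild-type agLDL array was the lowest for Cxcl2 (6.69, others 7.05 to 7.11). The untreated wild-type array was the lowest for Il1a (7.04, others 7.22 to 7.26).

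On arrays 1.1 the wild-type agLDL array was the highest for Plpp3 (7.15, others 6.98 to 7.002), B3galt6 (7.52, others 7.45 for all) and Cd74 (11.51, others 11.15 to 11.20), and the lowest for Trib3 (4.89, others 5.41 to 5.47). The untreated wild-type array was the lowest for Hpse (9.90, others 10.74 to 10.82) and Prtn3 (5.14, others 6.15 to 6.33). Trib3 was detected on no array 1.1 and Prtn3 not on its lowest array, so these 2 readings lie in the background. The Ndst1-deficient agLDL array was the lowest for Tnf (7.55, others 8.12 to 8.23). All values are normalized log2 intensities.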

How the results depend on the processing

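Each of 15 alternatives was run. The paired fit with the mouse and treatment label as a block gave 1529 calls, and without that block 1419. Other normalizations, filters and models gave between 1184 (no detection filter, 18312 tested) and 2187 (all 16 arrays), and the 1529 genes kept their direction in each setting that tested them. They were called on these same arrays, so the kept direction was nearly given in advance and is no independent check. Leaving out 1 pair in turn gave 535 to 1320 calls, 305 to 628 higher and 230 to 692 lower, and 482 to 821 at 1.5-fold or more. Among the wild-type arrays alone 24 genes were called, 23 higher and 1 lower, and 24 at 1.5-fold or more. Among the Ndst1-deficient arrays 514 were lower. Among untreated arrays alone 65 were called, 52 higher and 13 lower, 65 at 1.5-fold or more. Among agLDL arrays alone, also 2 pairs, 1656 were called, 1025 at 1.5-fold or more. Called counts from such fits on 2 pairs depend on the variance pooled in each fit, and cannot be compared with each other. Without background correction, which shrinks differences of dim probes, 329 were at 1.5-fold or more. No interaction with the agLDL or genotype label was called in any setting run. Of the 109 called genes named here with a value, 77 were called whichever pair was left out. Lyz2, which was not called, turned to 0.014 among agLDL arrays alone. The 4 pairs and 2 mice limit the precision, and differences of probes near background are understated by the offset.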

Other observations

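Further gene groups were read on the same fit, as limma calls of measured members, against 9.88% of all genes called higher and 10.9% lower. Among NRF2 antioxidant genes 3 of 16 were higher on arrays 1.2 and 0 lower: the heme-degrading enzyme Hmox1 (0.66 ± 0.10), the sulfiredoxin Srxn1 (0.51 ± 0.09) and Nqo1. Among heat shock genes 2 of 8 were higher, the mitochondrial chaperone Hspd1 (0.86 ± 0.13) and Bag3, and 0 lower. Lysosomal hydrolases and proton pump subunits gave 5 of 28 higher and 0 lower, and these 17.9% called lie near the 20.8% of all genes. The respiratory chain gave 2 of 47 higher, the proteasome 2 of 26 higher, and neither had a member called lower. Among matrix and stromal genes 3 of 11 were higher, Timp1, Tpm1 and the intermediate filament Vim (0.57 ± 0.10). Of 9 complement genes C5ar1, the receptor of the anaphylatoxin C5a, was higher (0.62 ± 0.15) and C4b was lower (-0.79 ± 0.09). Of 4 Ms4a genes Ms4a6b was lower (-0.53 ± 0.12). The calls of Srxn1 and Vim were lost without the Ndst1-deficient agLDL pair, that of Ms4a6b without this or the untreated wild-type pair, and that of C5ar1 without any one pair other than the untreated Ndst1-deficient pair. Of the X-linked genes Kdm6a was lower (-0.49 ± 0.10), a call lost without either agLDL pair. None of the 6 genes of common use as references, among them Gapdh and Hprt, was called. Values are log2 differences ± SE over 4 pairs.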
